A study of Mus musculus with 15 samples.

Results

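Heat shock proteins of the cytosol and mitochondria were followed through 10 of their genes: Hspa1a, Hspa1b, Hspa2, Hspa8, Hsph1, Hsp90aa1, Dnajb1, Hspb1, Hspd1 and Bag3. These 10 symbols were taken by name from the deposited tables of cultured mouse satellite cells, which are the stem cells that repair muscle fibres, and all 10 were found among the 46078 genes of the batch 1 count table and among the 13063 named genes of the batch 2 count table. Hspa2 was chosen by its measured rise against DMSO in these libraries, so its values are given as a description with no test, and the other 9 genes were tested. The study asked how extracellular purines, which its title links to poor muscle regeneration in diabetic mice, act on these cells. Batch 1 held 3 libraries of cells given 0.05 mM adenosine and 3 given DMSO, the solvent control. Batch 2, from C57BL/6J mice, held 3 libraries each of 0.1 mM adenosine, 0.25 mM adenosine monophosphate (AMP) and DMSO. The labels give no strain for batch 1. All groups were hindlimb satellite cells in a medium with horse serum, treated for 24 hours, and no label tells whether replicates were separate cultures or mice, so a p-value here reflects library-to-library spread that may be technical.

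Heat shock proteins are chaperones, which bind unfolded chains and help them fold, travel or be destroyed. The HSP70 proteins work in a cycle: J-domain proteins such as that of Dnajb1 deliver a client and speed ATP hydrolysis, and exchange factors such as those of Hsph1 and Bag3 release it. Some of these genes are made at a steady level in growing cells, such as Hspa8, and others such as Hspa1a and Hspa1b are switched on by heat shock factor 1 when unfolded protein builds up. In muscle the small heat shock protein of Hspb1 and the co-chaperone of Bag3 are known for protecting the actin-based cytoskeleton.

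Total counts per library ran between 14683346 and 20799588 in batch 1, and between 11107450 and 14201933 in batch 2. In batch 1, 23222 to 24194 genes had a count in the adenosine libraries against 18282 to 18804 in the DMSO libraries. Counts were tested with edgeR's quasi-likelihood test, a gene was called at a Benjamini-Hochberg adjusted p under 0.05 over all genes tested, and fold changes are treated over control. Much of the transcriptome moved in the same comparisons. With adenosine 39.2% of the 13842 genes tested in batch 1 were called, 19.6% higher and 19.5% lower, and in batch 2 69.4% of 13063 genes were called, 34.9% higher and 34.5% lower. With AMP 65.6% were called, 33.7% higher and 31.8% lower. These splits depended on the scaling: library totals without TMM factors, which correct for the make-up of the RNA, gave 4012 higher and 1955 lower genes in batch 1, 6344 and 2891 with adenosine in batch 2, and 6037 and 2605 with AMP, and shifted the median of all genes (log2 fold change) to 0.22, 0.32 and 0.28. The satellite cell transcription factor gene Pax7 was present in every library, at 55.6 to 63.9 CPM (counts scaled to the library total) with adenosine and 55.2 to 64.9 CPM with DMSO in batch 1, and at 61.8 to 69.1 CPM with adenosine, 68.2 to 83.4 CPM with AMP and 38.4 to 46.2 CPM with DMSO in batch 2. Myod1 and Myf5, which commit cells to the muscle lineage, and Des, the muscle intermediate filament gene, were present as well. Myod1 averaged 1168 CPM with adenosine against 2735 CPM with DMSO in batch 1. In batch 2 it averaged 719 CPM with adenosine and 882 CPM with AMP against 1530 CPM with DMSO. In the same order Des averaged 331 against 1029 CPM, and 398 and 435 against 1436 CPM. Myf5 averaged 121.5 against 168.7 CPM, and 106.4 and 170.3 against 160.0 CPM. By FPKM, which scales also to exon length and to a factor of each library, Myf5 with AMP was instead below DMSO. There it averaged 76.6 FPKM with AMP against 86.7 FPKM with DMSO, so that direction depended on the scaling. Myod1 and Des were lower with treatment by FPKM too. The summed level of 10 satellite cell and myoblast markers was 2478 to 3348 CPM with adenosine against 6886 to 7713 CPM with DMSO in batch 1, and 2050 to 2683 CPM with adenosine and 2596 to 3334 CPM with AMP against 5526 to 6123 CPM with DMSO in batch 2. Leukocyte markers were near 0, with 9 of 10 under 1 CPM in both groups of batch 1 and Cd3e at 0 in all 6 libraries of it, but their sum of 12.4 to 19.9 CPM with adenosine was above the 1.595 to 2.961 CPM with DMSO. The 2 leukocyte markers listed in batch 2 summed to 12.1 to 15.7 CPM with adenosine and 12.3 to 16.3 CPM with AMP against 1.65 to 3.31 CPM with DMSO. Endothelial markers summed to 23.1 to 30.6 CPM with adenosine against 11.57 to 12.03 CPM with DMSO in batch 1, and 3 of them to 11.9 to 12.6 CPM with adenosine and 11.003 to 16.2 CPM with AMP against 5.14 to 9.40 CPM with DMSO in batch 2. Schwann cell markers summed to 11.2 to 14.3 CPM with adenosine against 5.05 to 5.74 CPM with DMSO in batch 1, and 2 of them to 11.012 to 13.8 CPM with adenosine and 3.43 to 5.12 CPM with AMP against 0.697 to 1.51 CPM with DMSO in batch 2. Fibro-adipogenic progenitor markers summed to more, at 316 to 398 CPM with adenosine and 345 to 448 CPM with DMSO in batch 1. Of the 9 markers in this list 5 averaged under 1 CPM in both groups of batch 1, so the sum rests on the others. In batch 2, 4 of them summed to 288 to 309 CPM with adenosine and 394 to 434 CPM with AMP. With DMSO these 4 summed to 329 to 402 CPM. Smooth muscle and pericyte markers were lower with treatment, at 13.1 to 24.2 CPM with adenosine against 49.3 to 83.5 CPM with DMSO in batch 1, and 2 of them at 9.15 to 14.23 CPM with adenosine and 12.8 to 19.3 CPM with AMP against 40.9 to 43.9 CPM with DMSO in batch 2. In batch 1, 4 of 6 Schwann cell markers and 4 of 8 smooth muscle and pericyte markers averaged under 1 CPM in both groups. Of 8 endothelial markers 4 did with adenosine and 5 with DMSO. The part of these marker shifts in the changes described here was not tested.

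Of the 9 tested heat shock genes, 4 rose in each comparison with DMSO: Hspa1a, Hspa1b, Hspb1 and Bag3. With 0.05 mM adenosine 2 fell, Hspa8 and Hspd1, and 3 did not pass the test. With 0.1 mM adenosine 3 fell, Hspa8, Hspd1 and Hsph1, and 2 did not pass. With AMP 4 fell, Hspa8, Hspd1, Hsph1 and Hsp90aa1, and 1 did not pass. Over all genes tested 39.2%, 69.4% and 65.6% were called in these 3 comparisons. In bulk libraries such as these, fewer cells of a type and less RNA per cell cannot be told apart. The median log2 fold change of the 9 genes was 0.26, 0.16 and -0.08 in these 3 comparisons, against 0.03, 0.01 and 0.01 over all genes tested. With library totals the 9 genes split into 6 higher and 2 lower in batch 1, into 6 and 3 with adenosine in batch 2, and into 4 and 3 with AMP.

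**Figure D1:**
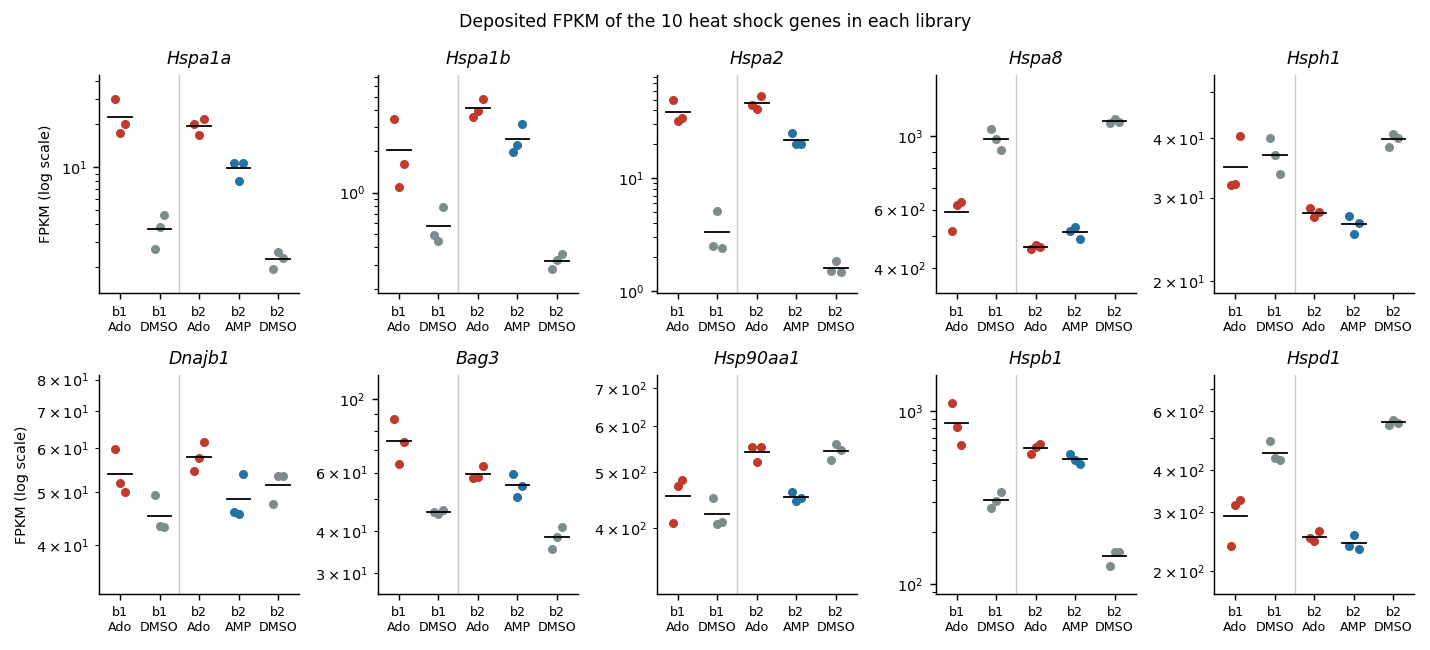
Deposited FPKM of the 10 heat shock genes in each of the 15 libraries, on a log scale. FPKM are fragments scaled to exon length and to a factor of each library, which is not its total alone. Red points are adenosine (Ado), blue AMP and grey DMSO libraries, b1 and b2 are batches 1 and 2, and black lines are means of 3 libraries. Hspa1a, Hspa1b, Hspa2, Hspb1 and Bag3 lie above DMSO in every treated library, and Hspa8 and Hspd1 lie below it.

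**Figure D2:**
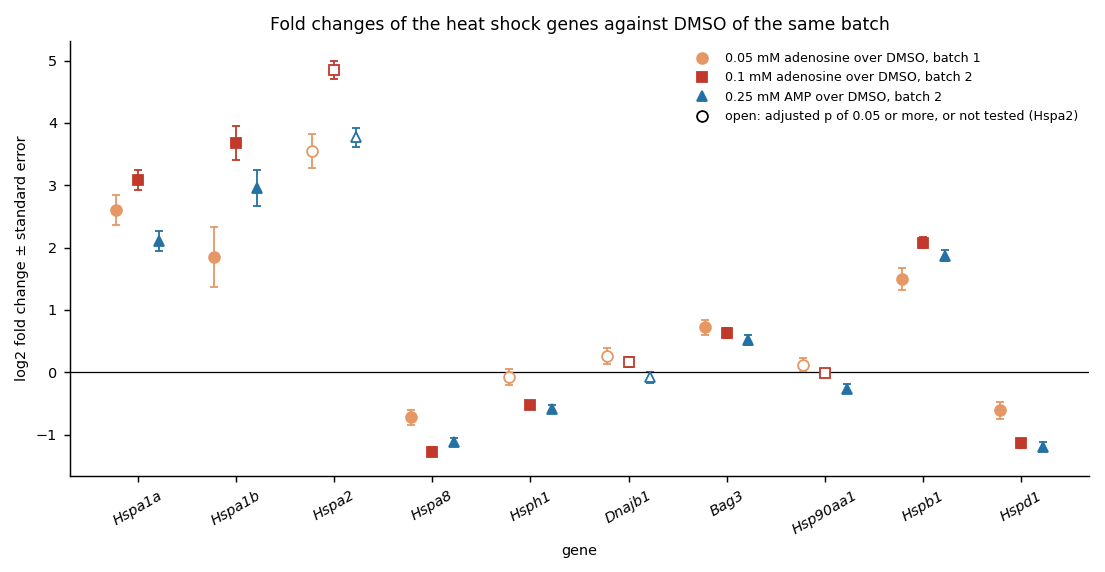
Log2 fold changes against DMSO of the same batch with standard errors, from edgeR. Filled symbols have an adjusted p under 0.05 and open ones do not, or belong to Hspa2, which was not tested. Hspa1a, Hspa1b, Hspb1 and Bag3 stand above 0 and Hspa8 and Hspd1 below 0 in all 3 comparisons.

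Hspa1a and Hspa1b code for the stress-inducible HSP70 of the cytosol. They are neighbouring copies on chromosome 17, both on the minus strand (GRCm38, chr17:34969190-34972156 for Hspa1a and chr17:34956436-34959238 for Hspa1b), each with a single exon. Hspa1a had 29.7, 17.2 and 19.8 FPKM in the adenosine libraries of batch 1, against 2.69, 3.82 and 4.62 FPKM in the DMSO libraries. Batch 2 gave 20.0, 16.7 and 21.6 FPKM with adenosine and 10.6, 7.95 and 10.8 FPKM with AMP, against 1.97, 2.57 and 2.32 FPKM with DMSO. Every treated library was above every DMSO library of its batch, and the AMP libraries lay between the other groups. Hspa1a was 6.05-fold higher with adenosine in batch 1 (log2 fold change 2.60, SE 0.24, edgeR adjusted p = 6.76e-06), 8.49-fold higher with adenosine in batch 2 (3.09, SE 0.16, adjusted p = 2.6e-10) and 4.31-fold higher with AMP (2.11, SE 0.16, adjusted p = 2.33e-08).

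Hspa1b stayed the least abundant of the 10 genes in each of the 5 groups. It had 3.47, 1.10 and 1.62 FPKM in the adenosine libraries of batch 1, from 152, 54 and 84 counts, against 0.490, 0.447 and 0.788 FPKM in the DMSO libraries, from 27, 18 and 33 counts. Batch 2 gave 3.58, 3.93 and 4.83 FPKM with adenosine and 1.97, 2.24 and 3.18 FPKM with AMP, against 0.277, 0.322 and 0.356 FPKM with DMSO. The groups did not overlap in either batch, but adenosine replicate 1 of batch 1 stood above the other 2 adenosine libraries. Hspa1b was 3.59-fold higher with adenosine in batch 1 (log2 fold change 1.85, SE 0.48, adjusted p = 0.00881), 12.8-fold higher with adenosine in batch 2 (3.68, SE 0.28, adjusted p = 1.55e-08) and 7.74-fold higher with AMP (2.95, SE 0.29, adjusted p = 3.41e-07). Without adenosine replicate 1 the batch 1 difference of Hspa1b did not pass the test (1.22, adjusted p = 0.0732).

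The copies share sequence, so reads of either may be lost. In batch 1 reads with several alignments were not counted, and adding the counts of the pair does not bring them back. For batch 2 the counting settings were not given, so such reads may have been dropped or split. Of the stretches of 50 bases of the Hspa1a transcript 66.3% occur in the transcript of another gene and 58.8% in that of Hspa1b, and for Hspa1b 62.3% occur in Hspa1a. The ratio of Hspa1a to Hspa1b FPKM was 8.56 to 15.7 with adenosine and 5.49 to 8.56 with DMSO in batch 1, and 4.25 to 5.59 with adenosine, 3.39 to 5.40 with AMP and 6.53 to 7.98 with DMSO in batch 2. With their counts added into 1 feature, Hspa1a plus Hspa1b was 5.74-fold higher with adenosine in batch 1 (log2 fold change 2.52, SE 0.24, edgeR adjusted p = 9.37e-06), 9.01-fold higher with adenosine in batch 2 (3.17, SE 0.15, adjusted p = 1.06e-10) and 4.72-fold higher with AMP (2.24, SE 0.15, adjusted p = 7.04e-09).

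Hspa2 (chr12:76404176-76406934, plus strand) codes for an HSP70 known mainly from the testis, where it is needed for sperm formation. It had 49.2, 32.5 and 34.1 FPKM in the adenosine libraries of batch 1, against 2.50, 5.11 and 2.42 FPKM in the DMSO libraries. The batch 2 levels were 44.7, 40.8 and 53.6 FPKM with adenosine and 25.0, 20.2 and 20.0 FPKM with AMP, against 1.51, 1.83 and 1.48 FPKM with DMSO. The fitted level of Hspa2, for which it was chosen, was 11.7-fold higher with adenosine in batch 1, 28.8-fold higher with adenosine in batch 2 and 13.6-fold higher with AMP. No stretch of 50 bases of its transcript occurs in another gene's transcript, so reads of Hspa1a, Hspa1b and Hspa8 would not be taken for Hspa2 over such a length.

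Hspa8 (chr9:40800984-40805200, plus strand), the constitutive HSP70 of the cytosol that folds new proteins and uncoats clathrin vesicles, moved the other way. It had 516, 621 and 634 FPKM in the adenosine libraries of batch 1, against 1052, 983 and 913 FPKM in the DMSO libraries. The batch 2 levels were 455, 469 and 462 FPKM with adenosine and 516, 530 and 489 FPKM with AMP, against 1099, 1132 and 1107 FPKM with DMSO. Every treated library was below every DMSO library. Hspa8 was 1.65-fold lower with adenosine in batch 1 (log2 fold change -0.73, SE 0.12, adjusted p = 0.000417), 2.42-fold lower with adenosine in batch 2 (-1.28, SE 0.07, adjusted p = 5.14e-10) and 2.17-fold lower with AMP (-1.12, SE 0.07, adjusted p = 3.26e-09). Of the 50-base stretches of its transcript 74.8% occur in other genes' transcripts and 70% in that of Gm15459, and its deposited gene length of 4156 bases exceeds the 2394 bases of its main transcript, so its FPKM is low for its counts.

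The inducible pair was a larger part of the HSP70 transcripts in treated cells. Hspa1a and Hspa1b together made up 6.03%, 2.86% and 3.27% of their summed FPKM with Hspa8 in the adenosine libraries of batch 1, against 0.301%, 0.432% and 0.589% in the DMSO libraries. In batch 2 they made up 4.93%, 4.21% and 5.40% with adenosine and 2.39%, 1.89% and 2.77% with AMP, against 0.204%, 0.254% and 0.241% with DMSO. The sum of the 3 genes was 615 ± 57.4 FPKM with adenosine against 987 ± 68.7 FPKM with DMSO in batch 1, and 486 ± 6.08 FPKM with adenosine and 524 ± 19.3 FPKM with AMP against 1115 ± 17.7 FPKM with DMSO in batch 2 (SD, n = 3 each). The treated libraries lay apart from the DMSO libraries of their batch in both the share and the sum. The long gene length behind the FPKM of Hspa8 raises each share, while reads lost to shared sequence may lower the levels of all 3 genes. The net error of the shares was not determined. Hspa2 is left out of these sums because it was chosen for its rise.

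**Figure D3:**
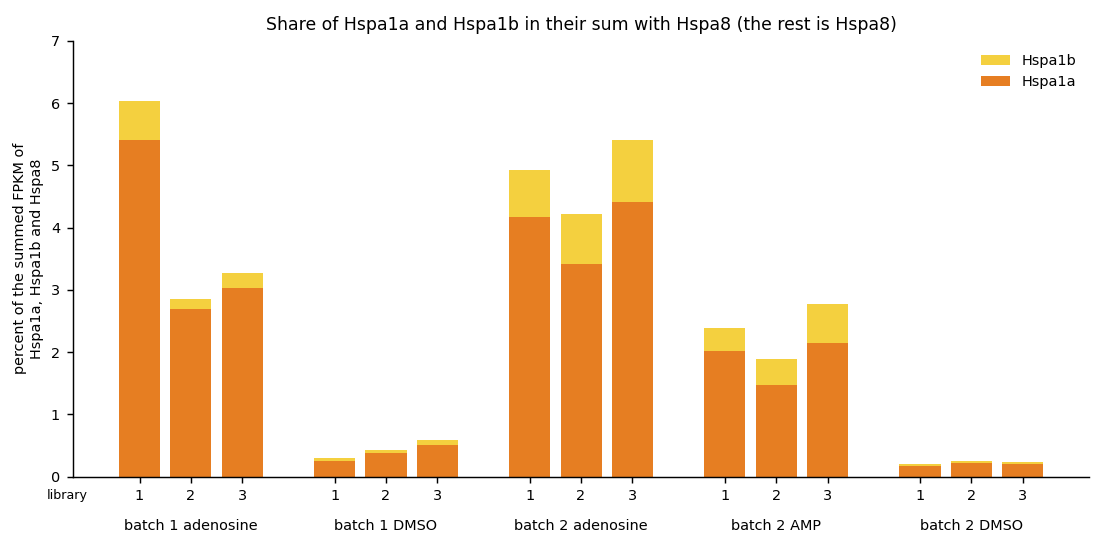
Share of Hspa1a and Hspa1b in their summed FPKM with Hspa8, in percent, 1 bar per library, numbered by replicate; the rest of each sum is Hspa8. Bars reach 2.86% to 6.03% with adenosine in batch 1, 4.21% to 5.40% with adenosine in batch 2 and 1.89% to 2.77% with AMP, and stay under 1% with DMSO.

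The promoters of the inducible pair, of Hspa2 and of Hspd1 are shown because heat shock factor 1 binds arrays of the unit GAA in alternating direction. The RefSeq promoters used here (GRCm38.p6) covered 8 of the 10 genes, those of Hspa8 and Hsp90aa1 were not analysed here, and the 250 bases before each start were searched on both strands for GAANNTTC and TTCNNGAA, each a pair of units and its own reverse complement. Sequences are printed 5′ to 3′ on the gene's strand, with capitals for bases in a match. The windows of Hspa1a (chr17:34972157-34972406, minus strand) and Hspa1b (chr17:34959239-34959488, minus) are printed whole, that of Hspa2 (chr12:76404120-76404369, plus) only over the 56 bases before its first annotated exon (chr12:76404120-76404175), and that of the second start site of Hspd1 (chr1:55087933-55088182, minus) only over its match (chr1:55088059-55088076), which lies in an exon of an annotated transcript from the first start site.
Hspa1a: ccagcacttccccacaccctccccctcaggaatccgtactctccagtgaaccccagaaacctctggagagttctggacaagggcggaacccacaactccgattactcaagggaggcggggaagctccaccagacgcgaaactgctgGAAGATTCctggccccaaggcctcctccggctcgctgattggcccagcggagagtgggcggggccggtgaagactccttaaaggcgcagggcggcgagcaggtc
Hspa1b: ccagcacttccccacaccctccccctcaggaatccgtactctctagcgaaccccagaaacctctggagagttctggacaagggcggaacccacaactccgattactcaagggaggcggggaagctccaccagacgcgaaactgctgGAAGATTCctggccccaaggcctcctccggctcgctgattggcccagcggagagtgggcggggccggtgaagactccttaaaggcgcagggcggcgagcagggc
Hspa2: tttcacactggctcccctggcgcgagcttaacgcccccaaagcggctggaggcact
Hspd1: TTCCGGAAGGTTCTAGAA
The Hspa1a and Hspa1b windows differ at 3 bases and hold the same single match, 104 to 97 bases before the start. The whole Hspa2 window holds no match. The Hspd1 window holds 18 bases in which 3 pairs overlap, and these contain the longer array GAANNTTCNNGAA (or its reverse complement TTCNNGAANNTTC) at 2 overlapping places. Hspd1 was the only one of the 8 genes with that array, which occurs in 0.466% of 32851 promoter windows of this length. The pairs GAANNTTC and TTCNNGAA, which the array overlaps, occur in 6.69% and 7.17% of them. Hspb1 held 2 matches to GAANNTTC and each of 2 Hsph1 start sites 1 match to TTCNNGAA, while Dnajb1 and Bag3 held none. The window of the second Dnajb1 start site (chr8:83608298-83608547) lies inside the annotated gene. Only exact units were searched for, so arrays with a changed base in a unit were not counted. A match here is a run of letters, and binding was not measured.

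Hsph1 (chr5:149614287-149636376, minus strand) codes for HSP110, an exchange factor of HSP70. It had 31.8, 32.1 and 40.6 FPKM in the adenosine libraries of batch 1, against 40.1, 36.9 and 33.6 FPKM in the DMSO libraries, which overlapped. In batch 2 it had 28.5, 27.3 and 28.0 FPKM with adenosine and 27.4, 25.1 and 26.6 FPKM with AMP, against 38.3, 40.9 and 40.2 FPKM with DMSO, where the treated libraries were lower throughout. Hsph1 did not pass the test in batch 1 (log2 fold change -0.07, SE 0.13, adjusted p = 0.697) and was 1.43-fold lower with adenosine (-0.52, SE 0.07, adjusted p = 3.72e-06) and 1.51-fold lower with AMP (-0.59, SE 0.07, adjusted p = 1.27e-06) in batch 2.

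Bag3 (chr7:128523583-128546977, plus strand), the HSP70 co-chaperone that steers damaged filament proteins to autophagy in muscle, had 86.8, 63.7 and 73.9 FPKM in the adenosine libraries of batch 1, against 45.8, 45.1 and 46.4 FPKM in the DMSO libraries. In batch 2 it had 58.0, 58.1 and 62.9 FPKM with adenosine and 59.7, 50.8 and 54.7 FPKM with AMP, against 35.4, 38.5 and 41.4 FPKM with DMSO. The treated libraries did not overlap the DMSO libraries of their batch, while adenosine and AMP overlapped each other. Bag3 was 1.65-fold higher with adenosine in batch 1 (log2 fold change 0.72, SE 0.13, adjusted p = 0.000816), 1.55-fold higher with adenosine in batch 2 (0.63, SE 0.08, adjusted p = 4.94e-06) and 1.44-fold higher with AMP (0.52, SE 0.08, adjusted p = 4.16e-05).

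Dnajb1 (chr8:83608175-83611902, plus strand), the main stress-inducible J-domain partner of HSP70, passed in none of the 3 comparisons with DMSO. It had 59.9, 51.8 and 49.9 FPKM in the adenosine libraries of batch 1, against 49.3, 43.2 and 43.2 FPKM in the DMSO libraries, and in batch 2 54.6, 57.5 and 61.7 FPKM with adenosine and 45.9, 45.5 and 53.9 FPKM with AMP, against 47.5, 53.3 and 53.5 FPKM with DMSO. Its log2 fold change was 0.26 in batch 1 (SE 0.12, adjusted p = 0.108), 0.16 with adenosine in batch 2 (SE 0.08, adjusted p = 0.0905) and -0.08 with AMP (SE 0.08, adjusted p = 0.4). With library totals the Dnajb1 values were 0.46 in batch 1 (adjusted p = 0.00944) and 0.48 with adenosine in batch 2 (adjusted p = 0.000383), both past the threshold. In edgeR with TMM Dnajb1 also passed with adenosine in batch 2 under a filter of mean 10 CPM (0.24, adjusted p = 0.0198). It passed there as well with only the 2 groups fitted (0.19, adjusted p = 0.0356) and with a replicate block (0.16, adjusted p = 0.0474).

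Hsp90aa1 (chr12:110690605-110702728, minus strand) codes for the inducible HSP90 of the cytosol, which holds kinases and steroid receptors ready for activation. It had 407, 473 and 484 FPKM in the adenosine libraries of batch 1, against 451, 406 and 409 FPKM in the DMSO libraries. Levels in batch 2 were 551, 520 and 552 FPKM with adenosine and 462, 444 and 450 FPKM with AMP, against 524, 558 and 546 FPKM with DMSO. By FPKM the AMP libraries stood apart from DMSO and the adenosine libraries overlapped it. By CPM, which scales to the library total alone, it was the other way round, with 1707 to 2090 CPM with adenosine against 1481 to 1677 CPM with DMSO in batch 1, and 2266 to 2402 CPM with adenosine and 1838 to 1984 CPM with AMP against 1866 to 1908 CPM with DMSO in batch 2. The log2 fold change of Hsp90aa1 was 0.12 with adenosine in batch 1 (SE 0.11, adjusted p = 0.43), -0.01 with adenosine in batch 2 (SE 0.07, adjusted p = 0.88) and -0.26 with AMP (SE 0.07, adjusted p = 0.00323), which was 1.20-fold lower. With library totals Hsp90aa1 passed as higher with adenosine in batch 1 (0.31, adjusted p = 0.0409) and batch 2 (0.30, adjusted p = 0.00204) and did not pass with AMP (0.01, adjusted p = 0.944), so each of its calls against DMSO depended on the scaling. Other genes' transcripts hold 58.5% of the 50-base stretches of its transcript, mostly that of Gm12346.

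Hspb1 (chr5:135887919-135889563, plus strand), a small heat shock protein that holds unfolded proteins without ATP and binds actin filaments, rose in all 3 comparisons with DMSO. It had 1126, 815 and 636 FPKM in the adenosine libraries of batch 1, against 274, 300.3 and 340.0 FPKM in the DMSO libraries. Levels in batch 2 were 568, 620 and 646 FPKM with adenosine and 563, 522 and 495 FPKM with AMP, against 127, 153 and 154 FPKM with DMSO. The groups did not overlap. Hspb1 was 2.83-fold higher with adenosine in batch 1 (log2 fold change 1.50, SE 0.18, adjusted p = 4.06e-05), 4.22-fold higher with adenosine in batch 2 (2.08, SE 0.09, adjusted p = 3.72e-11) and 3.66-fold higher with AMP (1.87, SE 0.09, adjusted p = 1.78e-10). Its transcript shares 60.4% of its 50-base stretches with other genes' transcripts, mostly with the pseudogene Hsp25-ps1.

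Hspd1 (chr1:55077835-55088243, minus strand) codes for HSP60, the chaperonin that folds proteins inside mitochondria. It had 238, 314 and 326 FPKM in the adenosine libraries of batch 1, against 487, 435 and 429 FPKM in the DMSO libraries. In batch 2 it had 251, 246 and 264 FPKM with adenosine and 237, 257 and 233 FPKM with AMP, against 546, 566 and 554 FPKM with DMSO. The treated libraries were lower throughout. Hspd1 was 1.53-fold lower with adenosine in batch 1 (log2 fold change -0.61, SE 0.13, adjusted p = 0.003), 2.20-fold lower with adenosine in batch 2 (-1.14, SE 0.07, adjusted p = 1.38e-09) and 2.29-fold lower with AMP (-1.19, SE 0.07, adjusted p = 1.32e-09). Of the 50-base stretches of its transcript 44.8% occur in other genes' transcripts, mostly in Hspd1-ps3. Hspe1, which codes for the lid of the same chaperonin and lies head to head with Hspd1, fell as well, with a log2 fold change of -0.61 in batch 1 (adjusted p = 0.0019), -0.74 with adenosine in batch 2 (adjusted p = 3.3e-06) and -0.76 with AMP (adjusted p = 3.35e-06).

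By FPKM Hspb1 headed the 10 genes in each treated group, at 859 FPKM with adenosine in batch 1, 611 FPKM with adenosine in batch 2 and 527 FPKM with AMP, where its range overlapped that of Hspa8. This order rests on the long gene length behind the FPKM of Hspa8. Per kilobase of the main transcript Hspa8 came first in all 5 groups, at 1113 CPM per kilobase against 1061 for Hspb1 with adenosine in batch 1, where their ranges overlapped, and at 874 against 761 with adenosine in batch 2 and 947 against 640 with AMP, where they did not. With DMSO Hspa8 was the most abundant by FPKM too, at 983 FPKM in batch 1 and 1112 FPKM in batch 2, with Hspd1 and Hsp90aa1 next and overlapping each other. By FPKM Hspa2 ranked seventh in both adenosine groups and eighth with AMP, and ninth with DMSO in both batches. Its FPKM range overlapped that of Hsph1 in batch 1 with adenosine and that of Hspa1a in batch 1 with DMSO. The gene length of Hsph1, 7266 bases, also exceeds the 3802 bases of its main transcript. Per kilobase of the main transcript Hspa2 ranked eighth with adenosine in batch 1, at 41.7 CPM against 72.3 for Hsph1, where their ranges did not overlap. With adenosine in batch 2 it ranked seventh, at 50.4 against 58.1 for Hsph1, where the ranges overlapped. The summed FPKM of the 10 genes was 2300.0 to 2548 with adenosine and 2221 to 2406 with DMSO in batch 1, which overlapped, and 2034 to 2157 with adenosine and 1836 to 1949 with AMP against 2421 to 2547 with DMSO in batch 2, where both treated groups were lower.

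For 7 of the 9 tested genes the FPKM ranges of adenosine and DMSO libraries of batch 1 did not overlap, 5 higher and 2 lower, where 51.5% of all genes tested were apart, 25.8% upward and 25.7% downward. In batch 2 the ranges of 5 genes were apart upward and of 3 downward with adenosine, against 73.5% of all genes, 37.1% upward and 36.5% downward, and with AMP 4 were apart upward and 4 downward, against 70.5% of all genes, 35.5% upward and 35% downward. In the authors' deposited table for batch 1, whose fold changes are DMSO over adenosine, Hspa1a had a log2 fold change of -2.59 (adjusted p = 6.97e-26) and Hspa8 one of 0.74 (adjusted p = 9.17e-08). In that authors' deposited table the same 6 of the 9 genes were marked significant as were called here.

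AMP at 0.25 mM was also set against adenosine at 0.1 mM within batch 2, a comparison in which compound and dose differ together. Of the 9 genes 2 were lower with AMP, none was higher and 7 did not pass, where 6.51% of all genes tested were called, 4.52% higher and 2% lower. Hspa1a was 1.97-fold lower with AMP than with adenosine (log2 fold change -0.98, SE 0.14, edgeR adjusted p = 0.000497), and the fitted level of Hspa2 was 2.12-fold lower, given without a test. Hspa1b was 1.65-fold lower and just missed the threshold (-0.72, SE 0.21, adjusted p = 0.052), and Hspa1a plus Hspa1b was 1.91-fold lower (-0.93, SE 0.13, adjusted p = 0.000428). Hspa1b passed as lower in DESeq2 (adjusted p = 0.0382) and in limma on log2(FPKM + 1) (adjusted p = 0.0463). In edgeR it passed with a replicate block (adjusted p = 0.0187) and without AMP replicate 3 (adjusted p = 0.0176), but not with library totals (adjusted p = 0.0592). Dnajb1 missed in the main fit (adjusted p = 0.0969) and passed as lower with the block (adjusted p = 0.035) and without AMP replicate 3 (adjusted p = 0.0247). Hsp90aa1 was 1.19-fold lower with AMP (-0.25, SE 0.07, adjusted p = 0.0391), but leaving out any of the 3 adenosine libraries, AMP replicate 1 or AMP replicate 2 ended that call (adjusted p = 0.0597 to 0.141). The FPKM ranges of 5 of the 9 genes were lower with AMP and of 1, Hspa8, higher, against 23.8% of all genes, 11.7% lower and 12.1% higher, although Hspa8 did not pass the test (0.16, SE 0.07, adjusted p = 0.211). Hspb1 (-0.20, SE 0.08, adjusted p = 0.174), Hspd1 (-0.06, SE 0.07, adjusted p = 0.726) and Bag3 (-0.11, SE 0.08, adjusted p = 0.512) did not pass.

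The adenosine effect was compared between batch 2 and batch 1 in a fit of 12 libraries, in which batch and dose cannot be told apart. Of 13052 genes tested 10.1% had a different effect, 5.27% upward and 4.87% downward, and of the 9 heat shock genes 3 did, all downward, while 6 did not pass. The difference of log2 fold changes, batch 2 minus batch 1, was -0.55 for Hspa8 (SE 0.12, edgeR adjusted p = 0.0127), -0.52 for Hspd1 (SE 0.14, adjusted p = 0.0288) and -0.44 for Hsph1 (SE 0.14, adjusted p = 0.0489). None of the 3 passed with library totals, at -0.44 for Hspa8 (adjusted p = 0.0644), -0.42 for Hspd1 (adjusted p = 0.106) and -0.335 for Hsph1 (adjusted p = 0.168), where Hspa1b (1.95, adjusted p = 0.0388) and Hspb1 (0.69, adjusted p = 0.0454) passed as higher. The calls of Hspd1 and of Hsph1 also ended in 9 of 12 fits that left out 1 library, and that of Hspa8 without DMSO replicate 2 of batch 2. The call of Hsph1 ended as well when genes were matched between the tables by unchanged names only (-0.44, adjusted p = 0.0511). With TMM the difference was 1.84 for Hspa1b (SE 0.58, adjusted p = 0.0545), 0.58 for Hspb1 (SE 0.22, adjusted p = 0.105) and 0.49 for Hspa1a (SE 0.31, adjusted p = 0.326). Without adenosine replicate 1 of batch 1, the library with the highest Hspa1b and Hspb1 of its group, both differences passed, at 2.44 for Hspa1b (adjusted p = 0.00526) and 0.82 for Hspb1 (adjusted p = 0.00609).

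The rest of the chaperone network was followed through 87 further genes in 8 lists, of which 80 were tested. With adenosine in batch 1, 15 rose, 11 fell and 54 did not pass, so 32.5% were called against 39.2% of all genes tested. With adenosine in batch 2, 18 rose, 39 fell and 23 did not pass, so 71.2% were called against 69.4% of all genes, 22.5% higher against 34.9% and 48.8% lower against 34.5%. With AMP 13 rose, 38 fell and 29 did not pass, so 63.8% were called against 65.6% of all genes, 16.2% higher against 33.7% and 47.5% lower against 31.8%. The directions depended on the scaling. With library totals 27 of the 80 genes were called higher and 9 lower in batch 1, 34 and 18 with adenosine in batch 2, and 30 and 19 with AMP, and the median log2 fold change of the 80 genes was 0.16, 0.11 and 0.04, against 0.22, 0.32 and 0.28 over all genes. The counts per list below are those with TMM. Hsf1, the transcription factor that switches on the heat shock genes, had 201 ± 19.8 CPM with adenosine against 158 ± 13.6 CPM with DMSO in batch 1, and 130 ± 5.84 CPM with adenosine and 138 ± 15.3 CPM with AMP against 98.2 ± 4.78 CPM with DMSO in batch 2 (SD, n = 3 each). In the fit, which scales by TMM, Hsf1 did not pass with adenosine in batch 1 (log2 fold change 0.16, adjusted p = 0.336) or in batch 2 (0.10, adjusted p = 0.255) and rose with AMP (0.22, adjusted p = 0.0147). With library totals Hsf1 passed with adenosine in batch 1 (0.35, adjusted p = 0.0345) and in batch 2 (0.40, adjusted p = 0.000624) too. Hsbp1, which codes for a protein that binds heat shock factor 1, was the other gene of the 5 factors and binding proteins to pass with TMM, and it rose in batch 2 with adenosine (0.69) and AMP (0.50).

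Among 5 tested genes of other small heat shock proteins, 2 rose and 2 fell in batch 1, and 3 rose and 2 fell with adenosine and with AMP in batch 2. Cryab, the alpha-B crystallin gene of muscle, rose with a log2 fold change of 1.18 in batch 1 (adjusted p = 0.000318), and Hspb6 rose the most in batch 2, by 1.78 with adenosine (adjusted p = 2.93e-06) and 1.62 with AMP (adjusted p = 1.18e-05). Hspb8, whose protein forms a complex with that of Bag3, fell, with -0.59 in batch 1, -1.10 with adenosine in batch 2 and -1.39 with AMP. Hspb11, which despite its name codes for a part of the transport machinery of cilia, fell the most in batch 1 (-1.29). The median of the 5 genes was 0.86, 0.61 and 0.68 in the 3 comparisons, against 0.03, 0.01 and 0.01 over all genes.

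The HSP70 machinery beyond the 10 genes moved in both directions. Of 5 other HSP70 and HSP110 genes none rose with TMM (1 did with library totals, with adenosine in batch 2), with 1 fall in batch 1 and 3 falls with each compound in batch 2, and Hspa12a, a distant member of the family, fell the most (-1.94, -2.09 and -1.81). Of 14 other J-domain genes 4 rose and 3 fell in batch 1, 6 rose and 7 fell with adenosine in batch 2, and 3 rose and 6 fell with AMP. With library totals these J-domain genes split into 4 higher and 3 lower, 7 and 3, and 7 and 1. Dnajc9, which also carries histones, fell the most (-0.98, -1.13 and -1.31). Dnajb2 rose in each comparison (0.53, 0.85 and 0.87), and Dnaja4 rose the most with adenosine in batch 2 (0.89), where its batch 1 value of 0.61 did not pass (adjusted p = 0.265). Of 8 exchange and ubiquitin co-chaperones 1 rose and 1 fell in batch 1, and 3 rose and 2 fell with each compound in batch 2. Bag2, whose protein inhibits the HSP70-linked ubiquitin ligase, fell in each (-1.50, -1.88 and -1.69), opposite to Bag3. St13 rose in each (0.52, 0.34 and 0.32), and Bag1 (0.49 and 0.37) and Bag6 (0.41 and 0.39) rose with adenosine and AMP in batch 2.

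Among 15 genes of the HSP90 partner and its co-chaperones, 4 rose and 2 fell in batch 1, 4 rose and 10 fell with adenosine in batch 2, and 2 rose and 10 fell with AMP. Fkbp4, a co-chaperone of steroid receptors, fell in each comparison (-0.46, -0.92 and -0.88), as did Ptges3, the p23 co-chaperone (-0.38, -0.86 and -0.99), but with library totals neither passed in batch 1 (-0.27, adjusted p = 0.0556 for Fkbp4 and -0.18, adjusted p = 0.25 for Ptges3). With library totals 6 genes of this list were higher and none lower in batch 1, 4 were higher and 4 lower with adenosine in batch 2, and 4 higher and 5 lower with AMP. Cdc37l1 rose in each (0.82, 0.43 and 0.43), and Tomm34, which links HSP70 and HSP90 to mitochondrial import, rose with adenosine in batch 1 (0.58) and batch 2 (0.58). Of 14 mitochondrial chaperone and protease genes besides Hspd1, 2 rose and 2 fell in batch 1, 1 rose and 8 fell with adenosine in batch 2, and none rose and 7 fell with AMP. With library totals the mitochondrial list split into 5 higher and 2 lower, 5 and 3, and 6 and 3, and Clpx was among those higher with AMP (0.37, adjusted p = 0.00536). Clpp, the subunit of a mitochondrial protease, fell the most with adenosine (-0.76 in batch 1 and -0.96 in batch 2), while Clpx, its unfoldase partner, rose with adenosine (0.36 and 0.29), and Grpel2 rose the most in batch 1 (0.43). Of 14 subunits of the cytosolic chaperonin and prefoldin 2 rose and none fell in batch 1, and none rose in batch 2, where 7 fell with adenosine and 8 with AMP. The chaperonin gene Tcp1 fell the most there (-0.96 with adenosine and -0.89 with AMP), and the prefoldin gene Vbp1 rose in batch 1 (0.42, adjusted p = 0.034). With library totals the chaperonin and prefoldin list split into 5 higher and 0 lower in batch 1, 6 and 3 with adenosine in batch 2, and 4 and 3 with AMP, and Vbp1 was higher with adenosine (0.46, adjusted p = 0.000104) and AMP (0.31, adjusted p = 0.00372) in batch 2 too. Between AMP and adenosine 2 of the 80 genes were higher and 3 lower with AMP, 6.25% against 6.51% of all genes. Dnajc21 (0.60) and Clpp (0.39) were higher and Tomm34 (-0.41), Hspa13 (-0.28) and Dnaja1 (-0.27) lower, of which Dnajc21, Hspa13 and Dnaja1 were named after their values were seen.

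**Figure D4:**
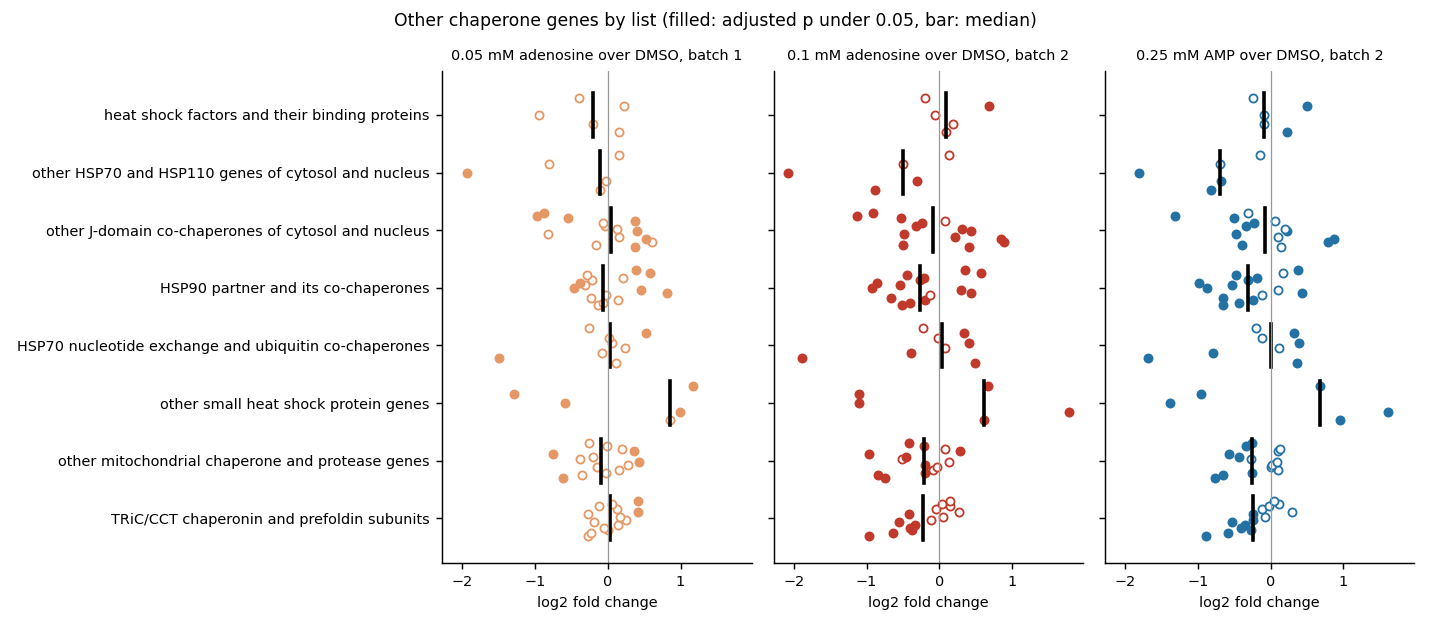
Log2 fold changes of the 80 tested genes of 8 chaperone lists against DMSO of the same batch, 1 point per gene. Filled points have an adjusted p under 0.05 and black bars are list medians. Other small heat shock protein genes have medians of 0.86, 0.61 and 0.68, and with TMM scaling, which is plotted, the HSP90 and chaperonin lists lie mostly below 0 in batch 2; with library totals their medians there lay between -0.05 and 0.08.

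Genes with the pattern most like that of 2 members were ranked by Pearson correlation of log2(CPM + 1), centred on the batch mean, over the 15 libraries, for the 8355 genes that averaged 10 CPM or more in each batch. The points share library depth and treatment groups, so the values are a description. For Hspa2 the closest were the quinone reductase gene Nqo1 (r = 0.994), the antigen presentation gene H2-K1 (0.992) and Tax1bp3 (0.992). Nqo1 averaged 204 CPM with adenosine against 26.4 CPM with DMSO in batch 1, and 310 CPM with adenosine and 151 CPM with AMP against 19.3 CPM with DMSO in batch 2. For Hspa8 the closest were the nucleolar gene Npm1 (0.991), the microtubule gene Map1b (0.987) and the adenosine kinase gene Adk (0.983). Npm1 averaged 1175 CPM with adenosine against 2353 CPM with DMSO in batch 1, and 810 CPM with adenosine and 991 CPM with AMP against 2509 CPM with DMSO in batch 2. Among the members themselves Hspa2 correlated most with Hspa1a (0.984), Hspb1 (0.979) and Bag3 (0.971), and Hspa8 with Hspd1 (0.974).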

How the data were processed

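RNA of cultured satellite cells was made into 15 libraries by cDNA synthesis with Smart-seq2 and Tn5 fragmentation, per the labels' protocols, which keeps no strand. The authors deposited raw counts and FPKM of both batches. Trim Galore, STAR, featureCounts, Subread, DESeq2 and mm10 are named in the submitters' processing notes. Batch 1 used featureCounts 1.6.4 without strand or multi-mapping options, per the file headers, so reads with several alignments were not counted. For batch 2 the counting settings were not given in the sources used here. Its table had been filtered (smallest total of a named gene 101 counts), and 43 lines with no gene name, 0.0589% of the counts, were left out. The deposited batch 1 FPKM was 0.91 to 1.09 times the counts scaled to gene length and library total, a constant of each library. This constant was 1.046 to 1.085 in the DMSO libraries and 0.91 to 0.94 in the adenosine libraries. The authors' log2 fold changes and adjusted p-values of batch 1 were deposited with the FPKM.

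Members, lists and named-gene rules were chosen with earlier results of these data known. The named genes were the 10 members, Hsf1, per list and comparison with DMSO the called genes with the largest rise and fall, the 3 genes most like Hspa2 and Hspa8, and Pax7, Myod1, Myf5 and Des. Counts were fitted with edgeR 4.0.16 in R 4.3.3 (TMM, filterByExpr, two-sided quasi-likelihood F test with Benjamini-Hochberg adjustment), batch 1 on 6 libraries, batch 2 on 9 and the batch difference on 12. The fits of adenosine against DMSO were run on simulated counts in which few genes changed, as many up as down. The AMP comparisons and the batch difference were not simulated, nor was a change of much of the transcriptome. Of the 13063 batch 2 names 13060 were matched to batch 1, also where R had changed a character, a choice made after results were seen. Levels of 1 gene between groups were planned as CPM; deposited FPKM was used instead after the values were seen, because CPM by library totals and the TMM fit differed in direction for Hsp90aa1 and Dnajb1. By CPM the counts of members apart from DMSO were 6 higher and 2 lower in batch 1, 6 and 3 with adenosine in batch 2, and 5 and 3 with AMP, and 1 higher and 4 lower for AMP against adenosine. Alternatives were DESeq2 1.42.0, library totals, 2 filters, limma 3.58.1 on log2 FPKM with pseudocounts of 1 and 0.1, a replicate block and leaving out each library. Same-numbered libraries deviated together by r of -0.026 to 0.088 in batch 1 and -0.073 to 0.3 in batch 2. Differently numbered libraries gave r of -0.168 to 0.105 in batch 1 and -0.25 to 0.144 in batch 2. The medians for same and different numbers were 0.054 and -0.0265 in batch 1, and 0.106 and -0.0685 in batch 2. The main fits did not take the numbers as pairs, and whether same-numbered libraries share an effect was not tested. The replicate block is the alternative that allows for it. The order of levels by CPM per kilobase of the main transcript, and the HSP70 shares without Hspa2, were added after the data were seen. Promoters came from RefSeq, positions from GENCODE on GRCm38.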

Additional observations from a re-analysis of the deposited data

Results flagged for a closer look

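The adenosine effect differed between batch 2 (0.1 mM) and batch 1 (0.05 mM) for 3 of the 9 tested genes, by the edgeR interaction of treatment with batch. Of all 13052 genes tested 10.1% were called, 5.27% upward and 4.87% downward. Hspa8 differed by -0.545 on the log2 scale (adjusted p = 0.0127), Hspd1 by -0.523 (adjusted p = 0.0288) and Hsph1 by -0.443 (adjusted p = 0.0489). With library totals all 3 calls ended, for Hspa8 at -0.44 (adjusted p = 0.0644), for Hspd1 at -0.42 (adjusted p = 0.106) and for Hsph1 at -0.335 (adjusted p = 0.168). The call of Hspa8 also ended without DMSO replicate 2 of batch 2 (-0.50, adjusted p = 0.051), and those of Hspd1 and Hsph1 each in 9 of the 12 fits that left out 1 library. Batch, dose and deposited table differ together, and the cause was not tested.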

How the results depend on the processing

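Against DMSO the rises of Hspa1a, Hspb1 and Bag3 and the falls of Hspa8 and Hspd1 kept their direction and their calls under every alternative run, as did the falls of Hsph1 in batch 2. Hspa1b in batch 1 lost its call in limma on log2(FPKM + 1) (0.89, adjusted p = 0.12) and log2(FPKM + 0.1) (1.56, adjusted p = 0.069). The fall of Hsp90aa1 with AMP turned to 0.007 with library totals, which moved the median of all genes. With library totals the genes called lower numbered 2891 with adenosine in batch 2, against 4508 with TMM, 2605 with AMP, against 4159, and 292 in the batch difference, against 636, where 2 heat shock genes were then higher and 0 lower. The genes called higher with AMP than with adenosine numbered 376 in limma with a pseudocount of 1 and 363 with 0.1, against 590. Of the heat shock genes, 1 was lower with AMP than with adenosine when only the 2 groups were fitted, against 2, and DESeq2 called 1 higher in the batch difference, against 0. The cause was not tested. With the replicate block 4 heat shock genes were lower with AMP than with adenosine, and in the batch difference 1 was higher (Hspa1b) and 1 lower (Hspa8), while Hspd1 (adjusted p = 0.0609) and Hsph1 (adjusted p = 0.0916) did not pass; against DMSO the block ended none of the heat shock genes' calls, brought Dnajb1 with adenosine in batch 2 past the threshold (0.16, adjusted p = 0.0474), and ended the batch 1 calls of Clpx, Ptges3 and Vbp1 (adjusted p = 0.0509 to 0.0598).

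Leaving out 1 library each gave, with adenosine against DMSO, 2048 to 2418 higher and 2183 to 2659 lower genes in batch 1 (3 to 4 heat shock genes higher, 2 lower) and 4207 to 4362 and 4187 to 4322 in batch 2 (4 and 3). With AMP against DMSO it gave 3989 to 4289 and 3797 to 4021 (4 and 4). For AMP against adenosine it gave 304 to 710 and 104 to 281 (0 higher, 1 to 4 lower), and for the batch difference 385 to 914 and 239 to 965 (0 to 2 higher, 0 to 3 lower). The low counts of Hspa1b, 9 to 33 with DMSO, limit its precision.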
